A study of Mus musculus with 24 samples.

Results

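Transcript levels of 10 macrophage marker genes were followed in mouse plantaris muscle, 7 of them markers of resident-type macrophages (Cd163, Mrc1, Lyve1, Folr2, F13a1, Cbr2 and Stab1) and 3 of lipid-associated macrophages (Trem2, Gpnmb and Lgals3). They were chosen by gene symbol from the 19937 genes that the array annotation gives a probe set of their own, and each was read by 1 probe set. The arrays covered 4 groups of 6 mice aged 3 months: untreated wildtype, overloaded wildtype, untreated Mstn-/- and overloaded Mstn-/- animals. Mstn-/- mice lack functional myostatin, a secreted brake on muscle growth. Overload was set up under pentobarbitone (50 mg/kg) by taking out the soleus and most of the gastrocnemius of both legs, so that the plantaris carried their load; the controls had no operation, so overload and surgery cannot be told apart. The plantaris of 1 side of each mouse was used, and the sources used here name neither the length of the overload nor the part of the gene deleted in Mstn-/- mice.

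Macrophages settle in muscle early in life and are also replenished from blood monocytes, and both kinds clear debris and support regeneration. Resident-type macrophages around vessels and in the fascia carry scavenger and endocytic receptors such as CD163, the mannose receptor and LYVE1. Lipid-associated macrophages form where cells that have taken up lipid-rich debris collect; their receptor TREM2 signals through the adaptor TYROBP, and galectin-3 (Lgals3) and the phagosomal glycoprotein GPNMB are among their typical products. None of the markers is restricted to macrophages: Lyve1 and Stab1 are also found in lymphatic or sinusoidal endothelium, F13a1 in platelets, and Lgals3 and Gpnmb in other activated cells.

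The arrays behaved as labelled for muscle. All 8 muscle fibre genes examined, such as the skeletal actin Acta1 and the fast myosin Myh4, were above the low-signal level of 6.63 log2 units in all 4 groups, as were all 40 group means of the 10 markers. The array medians lay between 139 and 147 intensity units, and the first principal component held 72.7% of the variance. Mstn itself was 2.51-fold lower in untreated Mstn-/- than in untreated wildtype muscle (log2 -1.33 ± 0.13, SE, limma adjusted p = 2.7e-08) and did not pass the test between the overloaded groups (log2 -0.15 ± 0.13, adjusted p = 0.39). Overload lowered Mstn 3.62-fold in wildtype (log2 -1.86 ± 0.13, adjusted p = 1.8e-12) and 1.60-fold in Mstn-/- muscle (log2 -0.68 ± 0.13, adjusted p = 5.6e-05). Its mean in overloaded wildtype muscle, 8.40 log2 units, was below the 8.93 of untreated Mstn-/- muscle. Where its probes lie relative to the deletion is not given. Mstn therefore checks the labels of the overloaded groups no further. Overloaded wildtype replicate 3 stood apart: it had the highest level in its group for 7 of 10 markers, a summed pan-macrophage intensity of 27181 against 18409 to 20752 on the other 5 arrays, and a summed neutrophil intensity of 2068 against 674 to 937. The part of these neutrophil genes in the results was not tested. Marker calls that turned on overloaded wildtype replicate 3 are given with and without it. Overloaded Mstn-/- replicate 6 was at the low end of its group. It was lowest for 6 of 10 markers, with a summed pan-macrophage intensity of 13013 against 15639 to 24770 on the other 5 arrays.

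The sequences before the transcription starts are shown for 3 resident-type markers that rose together and for the pair that did not rise in wildtype muscle. They were searched for the short purine-rich core that PU.1, the transcription factor that defines the myeloid lineage, recognises. Folr2 rose with the 3 shown but is left out here, and neither of its sequences held this core. The display is therefore not a sample of all markers that rose. RefSeq windows of assembly GRCm38.p6 were found for 9 of the 10 markers, 11 windows in all; Lyve1 had none. Each sequence holds the 250 bases before the start, read 5′ to 3′ on the strand of the gene, and capitals mark the PU.1 core GAGGAA or its reverse complement TTCCTC.

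Mrc1 promoter, chr2:14229164-14229413, plus strand: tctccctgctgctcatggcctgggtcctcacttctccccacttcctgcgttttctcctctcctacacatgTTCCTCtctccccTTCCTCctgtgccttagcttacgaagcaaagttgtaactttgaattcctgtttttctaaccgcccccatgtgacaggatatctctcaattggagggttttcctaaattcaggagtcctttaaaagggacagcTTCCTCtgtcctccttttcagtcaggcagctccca
Stab1 promoter, chr14:31168642-31168891, minus strand: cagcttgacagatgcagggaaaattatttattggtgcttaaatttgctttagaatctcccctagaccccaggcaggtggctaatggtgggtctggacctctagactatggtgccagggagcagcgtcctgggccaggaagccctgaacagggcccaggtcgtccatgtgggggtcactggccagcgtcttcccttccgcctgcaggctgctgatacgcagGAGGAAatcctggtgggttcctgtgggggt
F13a1 promoter, chr13:37050245-37050494, minus strand: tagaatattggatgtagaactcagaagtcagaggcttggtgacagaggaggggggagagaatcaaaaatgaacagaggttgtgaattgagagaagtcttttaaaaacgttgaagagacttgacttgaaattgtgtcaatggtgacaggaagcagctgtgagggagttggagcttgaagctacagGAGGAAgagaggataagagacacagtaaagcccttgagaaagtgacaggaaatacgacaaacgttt
Cbr2 promoter, chr11:120732022-120732271, minus strand: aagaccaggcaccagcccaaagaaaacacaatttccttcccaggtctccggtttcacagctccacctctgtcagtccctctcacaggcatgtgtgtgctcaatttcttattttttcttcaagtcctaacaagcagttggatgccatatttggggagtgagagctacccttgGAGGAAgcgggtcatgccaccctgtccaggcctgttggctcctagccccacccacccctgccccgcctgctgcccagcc
Cd163 promoter, chr6:124304401-124304650, plus strand: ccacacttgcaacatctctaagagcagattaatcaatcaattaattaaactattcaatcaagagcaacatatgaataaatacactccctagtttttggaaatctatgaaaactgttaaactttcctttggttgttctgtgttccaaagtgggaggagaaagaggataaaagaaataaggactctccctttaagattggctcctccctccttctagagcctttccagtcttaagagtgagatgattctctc

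The window of Mrc1 held 3 such cores, with first bases 180, 167 and 35 bases before the start. Those of Stab1, Cbr2 and Trem2 held 1 each, at 30, 79 and 40 bases. F13a1 has 2 windows for different starts: the one shown held 1 core at 66 bases, and the other, chr13:37049214-37049463 on the minus strand, held none. The windows of Cd163, Gpnmb and Lgals3 and both of Folr2 also held none. On either strand GAGGAA was present in 5 of 11 windows and in 23.3% of the 32851 promoters in the table. The other motifs searched on both strands were the MAF core TGCTGA (3 of 11 windows against 16.1% of all promoters), the E-boxes CACGTG (0 of 11 against 6.02%) and CATGTG (4 of 11 against 12.3%), which TFE and MITF proteins bind, and the AP-1 letters TGANTCA (2 of 11 against 6.75%). No match in these windows shared a base with a match to another of these motifs. These are matches of letters only.

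Overload of the wildtype plantaris raised 8 of the 10 markers and lowered none. The mannose receptor Mrc1 rose 4.86-fold and Gpnmb 5.04-fold, whereas the haemoglobin scavenger receptor Cd163 (log2 -0.13 ± 0.10, SE, n = 6 per group) and the carbonyl reductase Cbr2 (log2 -0.02 ± 0.12) did not pass the test. In Mstn-/- muscle 8 of 10 also rose and Cd163 fell. The test was limma with Benjamini-Hochberg adjustment over 14499 genes and a threshold of 0.05, and it called 30.3% of those genes higher and 35.6% lower in wildtype, and 27.1% higher and 33.5% lower in Mstn-/- muscle (65.9% and 60.6% in either direction). In wildtype the 7 resident-type markers had a median log2 change of 0.98 and the 3 lipid-associated markers 1.89, against -0.06 over all genes tested. In Mstn-/- muscle the medians were 0.76 and 1.49, against -0.06. Overloaded and untreated arrays did not overlap for 7 of 10 markers in wildtype and for 7 of 10 in Mstn-/- muscle, where 43% and 39.9% of all genes tested had no overlap. In whole muscle, more cells of a type and more RNA per cell cannot be told apart.

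**Figure D1:**
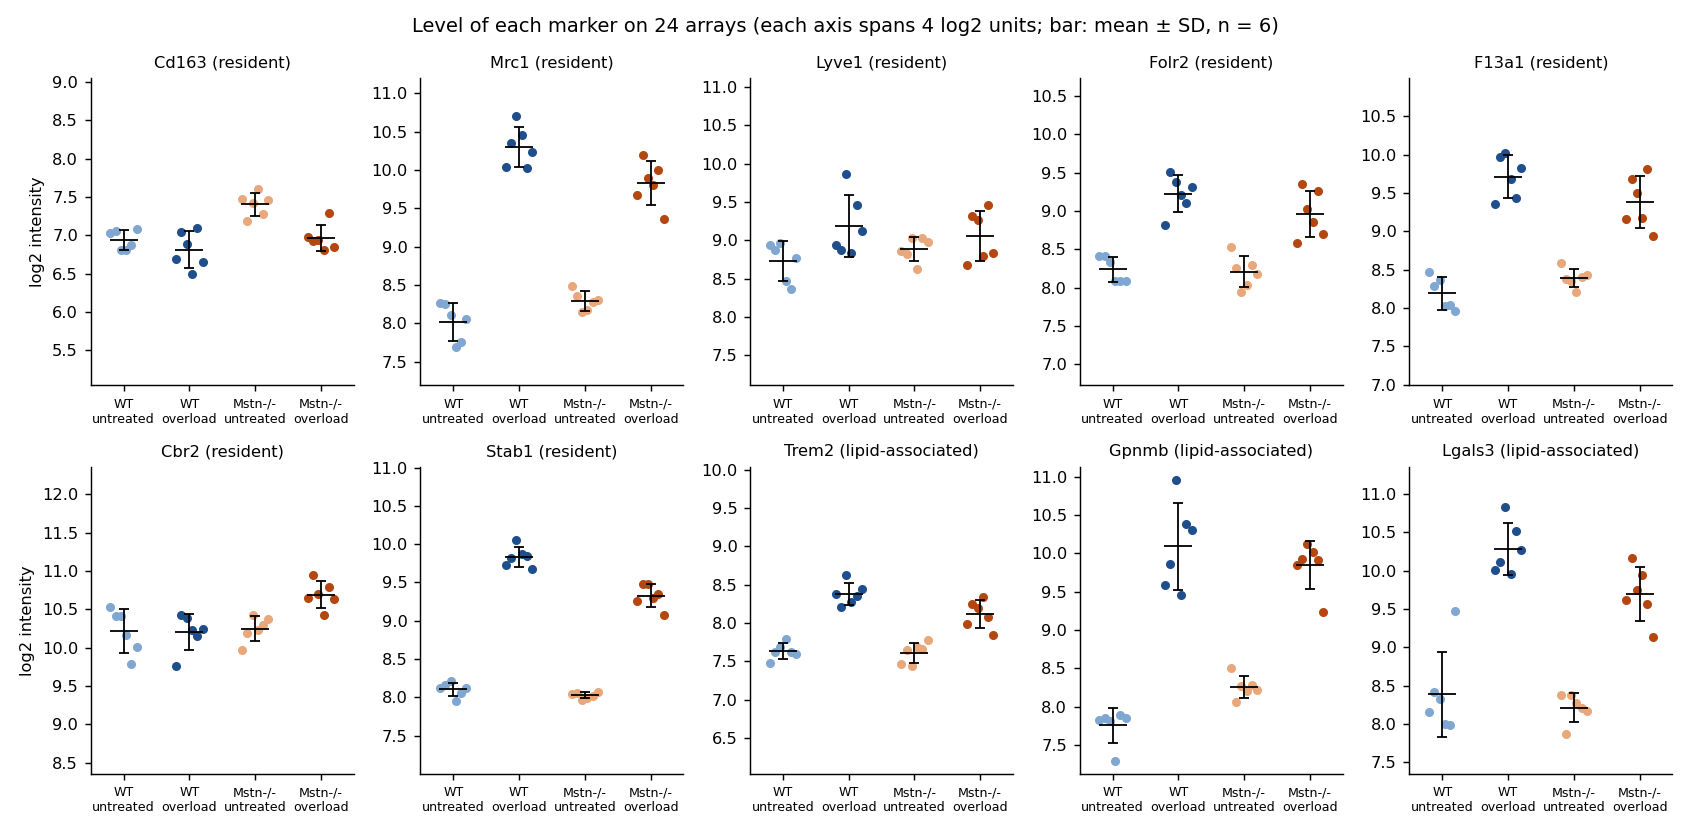
Log2 intensity of the 10 markers (vertical axis, 4 log2 units in each panel) on the 6 arrays of each of the 4 groups, with the group mean and SD as bars. Mrc1, Stab1, F13a1, Folr2, Trem2, Gpnmb and Lgals3 lie higher on every overloaded array than on every untreated array of the same genotype, while Cd163 is highest in untreated Mstn-/- muscle.

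Of the scavenger and endocytic receptors, the mannose receptor Mrc1, which takes up mannose-bearing glycoproteins, moved most. Its log2 intensity ran from 7.69 to 8.27 (median 8.08) in untreated wildtype and from 10.02 to 10.70 (median 10.29) in overloaded wildtype muscle. Among Mstn-/- arrays it ran from 8.14 to 8.49 (median 8.29) without and from 9.36 to 10.20 (median 9.85) with overload. The lowest overloaded array of each genotype was thus well above its highest untreated array. The change was 2.28 ± 0.13 in wildtype (adjusted p = 3.6e-14) and 1.53 ± 0.13 in Mstn-/- muscle, a 2.90-fold rise (adjusted p = 1.2e-10).

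Stab1 encodes stabilin-1, which takes up acetylated lipoproteins and the matrix protein SPARC, and it had the tightest replicates of the set. Untreated arrays ran from 7.95 to 8.21 (median 8.12) in wildtype and from 7.97 to 8.07 (median 8.03) in Mstn-/- muscle. Overloaded arrays ran from 9.68 to 10.06 (median 9.83) and from 9.08 to 9.48 (median 9.33). No pair of groups that differed in load overlapped. The rise was 3.32-fold in wildtype (log2 1.73 ± 0.06, adjusted p = 6.6e-17) and 2.46-fold in Mstn-/- muscle (log2 1.30 ± 0.06, adjusted p = 3e-14).

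Cd163, which clears complexes of haemoglobin and haptoglobin, went the other way or stayed within its spread. In wildtype it ran from 6.80 to 7.09 (median 6.95) untreated and from 6.50 to 7.10 (median 6.79) overloaded, and these ranges overlapped (adjusted p = 0.23). In Mstn-/- muscle it ran from 7.18 to 7.60 (median 7.44) untreated and from 6.81 to 7.29 (median 6.93) overloaded. All but 1 of the overloaded Mstn-/- arrays were below every untreated one, the exception being replicate 5. The fall there was 1.36-fold (log2 -0.44 ± 0.10, adjusted p = 0.00031). The signal of Cd163 was close to the low-signal level in every group, so the size of its folds is uncertain. Cd163 and the other haem-handling genes did not share a direction under overload in wildtype muscle: 6 of 9 tested genes of that list rose, among them the haem oxygenase Hmox1 (2.37-fold, adjusted p = 4.9e-09) and the haemopexin receptor Lrp1 (2.81-fold, adjusted p = 2.3e-14), and the ferritin heavy chain Fth1 fell 1.14-fold. The iron exporter Slc40a1 fell 1.73-fold in overloaded Mstn-/- muscle (adjusted p = 3.1e-05) and, in wildtype, did not pass the test (log2 0.27, adjusted p = 0.092).

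The hyaluronan receptor Lyve1 and the folate receptor Folr2, both used to label perivascular macrophages, rose less. Lyve1 ran from 8.36 to 8.96 (median 8.82) in untreated and from 8.84 to 9.87 (median 9.03) in overloaded wildtype muscle, and only 3 of 6 overloaded arrays were above every untreated one. Its rise was 1.37-fold (log2 0.45 ± 0.16, adjusted p = 0.013), and without overloaded wildtype replicate 3, the array at 9.87, it was 0.32 on the log2 scale and no longer passed (adjusted p = 0.052). In Mstn-/- muscle Lyve1 ran from 8.63 to 9.03 (median 8.92) and from 8.68 to 9.47 (median 9.05), a change of 0.17 ± 0.16 that did not pass (adjusted p = 0.36). Folr2 was more regular. It ran from 8.09 to 8.42 (median 8.22) and from 8.82 to 9.52 (median 9.26) in wildtype, and from 7.95 to 8.53 (median 8.22) and from 8.59 to 9.35 (median 8.95) in Mstn-/- muscle, with no overlap between loads. Its rise was 1.98-fold in wildtype (log2 0.98 ± 0.12, adjusted p = 1e-07) and 1.69-fold in Mstn-/- muscle (log2 0.76 ± 0.12, adjusted p = 9.1e-06).

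The enzymes among the resident-type markers parted. F13a1, the catalytic subunit of coagulation factor XIII, a transglutaminase that cross-links fibrin and matrix proteins, ran from 7.96 to 8.47 (median 8.16) in untreated and from 9.35 to 10.03 (median 9.75) in overloaded wildtype muscle. The Mstn-/- arrays ran from 8.21 to 8.58 (median 8.39) and from 8.94 to 9.82 (median 9.34). Both rises were free of overlap, 2.88-fold in wildtype (log2 1.52 ± 0.13, adjusted p = 1.3e-10) and 1.98-fold in Mstn-/- muscle (log2 0.98 ± 0.13, adjusted p = 4.7e-07). Platelets also contain the F13a1 protein. Of 5 tested platelet and megakaryocyte genes only the integrin Itgb3, which other cells express too, rose in either genotype (1.70-fold and 1.45-fold). Pf4, the platelet factor 4 gene, was placed in the resident-type list below and rose 3.63-fold and 2.24-fold. Under overload Ppbp was 2.29-fold higher in Mstn-/- than in wildtype muscle (limma adjusted p = 0.021). Its overloaded Mstn-/- arrays were spread widely (8.85 ± 1.42 log2 units, SD) against 7.66 ± 0.37 in overloaded wildtype muscle. The summed platelet list ran from 869 to 2486 (median 1027) on the overloaded Mstn-/- arrays, so this fold does not describe the group evenly. The part of platelets in the F13a1 changes was not tested. Cbr2, a carbonyl reductase, ran from 9.78 to 10.53 (median 10.28) in untreated and from 9.76 to 10.42 (median 10.24) in overloaded wildtype muscle, a full overlap (adjusted p = 0.90). On the Mstn-/- arrays it ran from 9.97 to 10.43 (median 10.26) and from 10.43 to 10.94 (median 10.68), with 5 of 6 overloaded arrays above every untreated one. That rise was 1.36-fold (log2 0.44 ± 0.12, adjusted p = 0.0019).

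All 3 lipid-associated markers rose in both genotypes. Trem2, the lipid-sensing receptor, moved least: it ran from 7.48 to 7.80 (median 7.62) in untreated and from 8.21 to 8.63 (median 8.36) in overloaded wildtype muscle, and from 7.44 to 7.77 (median 7.65) and from 7.84 to 8.34 (median 8.14) in Mstn-/- muscle. The groups of different load did not overlap, and the rises were 1.68-fold (log2 0.75 ± 0.08, adjusted p = 6.1e-09) and 1.42-fold (log2 0.50 ± 0.08, adjusted p = 5.9e-06). Gpnmb and Mrc1 had the highest rises of the 10 markers in wildtype muscle, but the overloaded arrays of Gpnmb were spread widely, and overloaded wildtype replicate 3 was its highest. It ran from 7.29 to 7.89 (median 7.84) and from 9.45 to 10.96 (median 10.08) there, and from 8.05 to 8.51 (median 8.24) and from 9.23 to 10.12 (median 9.92) in Mstn-/- muscle. The rises were 5.04-fold (log2 2.33 ± 0.18, adjusted p = 2e-11) and 3.00-fold (log2 1.59 ± 0.18, adjusted p = 4e-08). Without overloaded wildtype replicate 3 the log2 change of Gpnmb was 2.16 and that of Mrc1 2.20, and Mrc1 also came before Gpnmb without replicate 5 or replicate 6 of that group, so the pair has no settled order.

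Lgals3, the galectin that binds beta-galactosides on glycoproteins and gathers at damaged lysosomes, had 1 untreated array far from its group. In untreated wildtype muscle 5 arrays lay between 7.98 and 8.41 and replicate 6 at 9.47, and the overloaded arrays ran from 9.95 to 10.83 (median 10.19). The Mstn-/- arrays ran from 7.87 to 8.38 (median 8.24) untreated and from 9.14 to 10.16 (median 9.68) overloaded. Even with replicate 6 no untreated array reached an overloaded one of its genotype. The rise was 3.71-fold in wildtype (log2 1.89 ± 0.20, adjusted p = 4.1e-09; log2 2.11 without replicate 6) and 2.80-fold in Mstn-/- muscle (log2 1.49 ± 0.20, adjusted p = 4.3e-07).

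Without overload, the genotypes differed by the test in 1 of the 10 markers, Cd163, which was 1.38-fold higher in Mstn-/- muscle (log2 0.46 ± 0.10, limma adjusted p = 0.00097), and its arrays did not overlap. Of all genes tested, 11.1% were called higher and 10.2% lower (21.3% in either direction), and 12% did not overlap. Gpnmb was the other marker without overlap, at 7.29 to 7.89 in wildtype and 8.05 to 8.51 in Mstn-/- muscle, and its difference of 0.50 ± 0.18 was at the threshold (adjusted p = 0.050). For the remaining 8 markers the differences ran from -0.18 for Lgals3 to 0.27 for Mrc1. The resident-type median was 0.16 and the lipid-associated median -0.02, against -0.01 over all genes. The ferroportin gene Slc40a1, the iron exporter named above, was 1.61-fold higher in untreated Mstn-/- muscle (adjusted p = 0.00092).

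Under overload the genotypes differed in 6 of 10 markers, and 5 of these were lower in Mstn-/- muscle. Stab1 was 1.42-fold lower (log2 -0.51 ± 0.06, limma adjusted p = 1.2e-06), with every Mstn-/- array below every wildtype array. Mrc1 was 1.39-fold lower (log2 -0.48 ± 0.13, adjusted p = 0.004), Lgals3 1.50-fold (log2 -0.58 ± 0.20, adjusted p = 0.022), Trem2 1.20-fold (log2 -0.27 ± 0.08, adjusted p = 0.01) and F13a1 1.26-fold (log2 -0.33 ± 0.13, adjusted p = 0.048). Each of these 4 overlapped, with 3 to 5 of the 6 Mstn-/- arrays below every wildtype array. Cbr2 alone was higher in Mstn-/- muscle, 1.41-fold (log2 0.49 ± 0.12, adjusted p = 0.0016), with its 6 arrays above all wildtype ones. The background was 17.5% of genes called higher, 19% called lower, 36.5% in either direction and 15.5% without overlap. Cd163 (log2 0.15 ± 0.10), Lyve1 (-0.13 ± 0.16), Folr2 (-0.26 ± 0.12) and Gpnmb (-0.25 ± 0.18) did not pass. The medians were -0.26 for the resident-type and -0.27 for the lipid-associated markers, against -0.03 over all genes. Stab1, Mrc1, Trem2 and Cbr2 kept their calls in each of the 12 fits that left out 1 overloaded array. Lgals3 lost its call without overloaded wildtype replicate 3 (-0.47, adjusted p = 0.068) or overloaded Mstn-/- replicate 6 (-0.47, adjusted p = 0.070). F13a1 lost it in 7 of 12 such fits, without overloaded wildtype replicate 2, 3, 4 or 6 or overloaded Mstn-/- replicate 1, 4 or 6, with an adjusted p of up to 0.14.

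**Figure D2:**
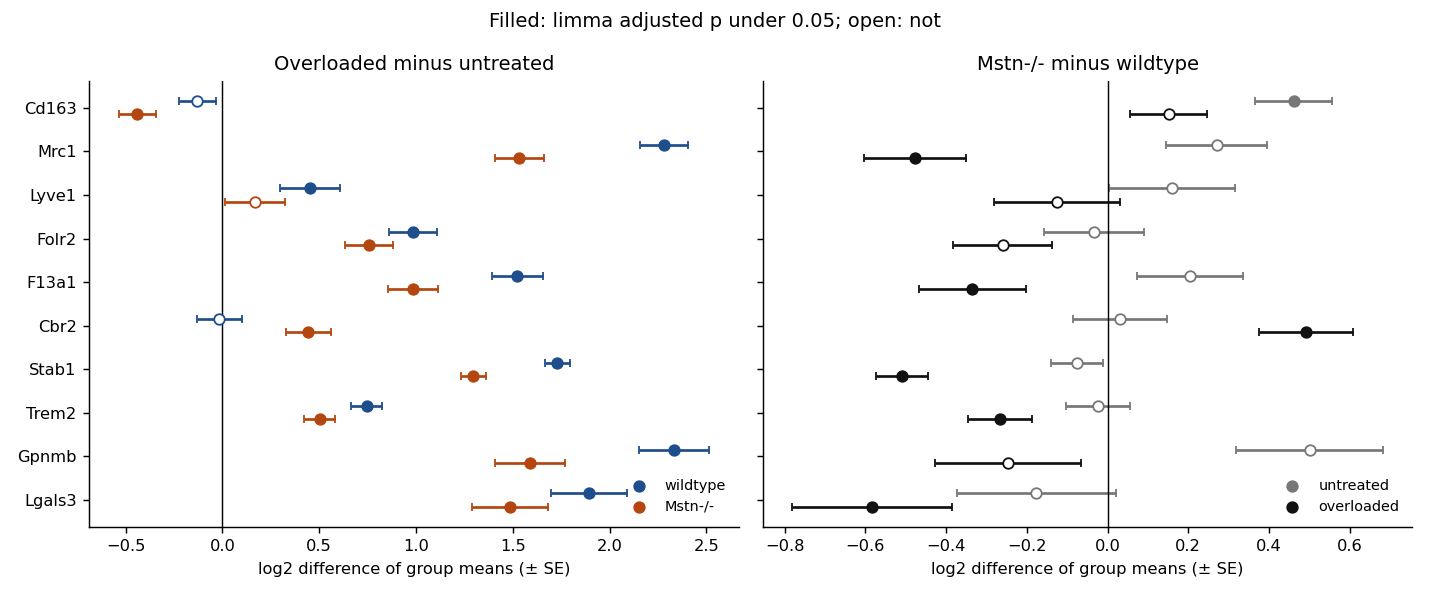
Log2 differences of group means with their standard errors for the 10 markers (horizontal axis), on the left overloaded minus untreated in wildtype (blue) and Mstn-/- muscle (orange), on the right Mstn-/- minus wildtype in untreated (grey) and overloaded muscle (black), with filled points where the limma adjusted p was under 0.05. Blue points lie to the right of orange ones for every marker but Cbr2, and of the black points only those of Cbr2 and Cd163 lie above 0.

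The difference between the responses, that is, the overload change in Mstn-/- muscle minus that in wildtype muscle, was tested in the same limma model. It was negative for 9 of the 10 markers and passed the test for 4, all of them lower, where 8.92% of all genes were called higher and 8.44% lower (17.4% in either direction). The response of Mrc1 was smaller by a factor of 1.68 in Mstn-/- muscle (log2 -0.75 ± 0.18, adjusted p = 0.0045) and that of Stab1 by 1.35 (log2 -0.43 ± 0.09, adjusted p = 0.0017); both passed in all 24 fits without 1 array. F13a1 (-0.54 ± 0.19, adjusted p = 0.046) and Gpnmb (-0.75 ± 0.26, adjusted p = 0.045) were near the threshold. F13a1 lost its call in 15 of the 24 fits and kept it only without untreated wildtype replicate 1, 2 or 3, overloaded wildtype replicate 1 or 5, untreated Mstn-/- replicate 4 or overloaded Mstn-/- replicate 2, 3 or 5. Gpnmb lost its call in 17 and kept it only without untreated wildtype replicate 6, overloaded wildtype replicate 1, 2 or 4, untreated Mstn-/- replicate 2 or overloaded Mstn-/- replicate 3 or 4. For Cbr2 the difference was positive and just short of the threshold (0.46 ± 0.16, adjusted p = 0.053). Cd163 (-0.31 ± 0.14), Lgals3 (-0.41 ± 0.28), Lyve1 (-0.28 ± 0.22), Trem2 (-0.24 ± 0.11) and Folr2 (-0.23 ± 0.17) did not pass. The overload and genotype comparisons share their arrays, so their values stand side by side and were not correlated.

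The order of the 4 groups therefore differed between markers. Mrc1, Stab1, F13a1, Trem2 and Lgals3 were highest in overloaded wildtype, then in overloaded Mstn-/- muscle, and in their untreated groups the genotypes did not pass the test. For Folr2 and Gpnmb the overloaded groups were next to each other as well, but did not differ by the test. Lyve1 had the narrowest span of the markers that rose, from 8.73 ± 0.26 (SD) in untreated wildtype to 9.18 ± 0.40 in overloaded wildtype muscle, with both Mstn-/- groups between them at 8.89 ± 0.15 and 9.06 ± 0.33. Cbr2 was highest in overloaded Mstn-/- muscle at 10.69 ± 0.17, and the other 3 groups lay between 10.20 and 10.25. Cd163 was highest in untreated Mstn-/- muscle at 7.40 ± 0.15, and the other 3 lay between 6.81 and 6.97.

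The marker changes took place beside a broad rise of macrophage genes. All 19 pan-macrophage genes tested rose in wildtype and all 19 in Mstn-/- muscle, with median log2 changes of 1.75 and 1.46. Lysozyme (Lyz2) rose 6.02-fold and the lysosomal membrane protein gene Laptm5 5.07-fold in wildtype, and Laptm5 3.82-fold and Ms4a7 6.98-fold in Mstn-/- muscle; Ms4a7 was below the low-signal level in untreated muscle, so its fold is uncertain in size. The summed intensity of the list ran from 4042 to 5399 and from 18409 to 27181 in untreated and overloaded wildtype, and from 5560 to 7042 and from 13013 to 24770 in untreated and overloaded Mstn-/- muscle. Between genotypes, 6 of the 19 were higher in untreated Mstn-/- muscle, among them Lyz2 (1.81-fold) and the CSF1 receptor Csf1r (1.34-fold). Under overload 5 of the 19 were lower in Mstn-/- muscle, and Itgam (1.32-fold) and Cx3cr1 (1.23-fold) had the smallest adjusted p. Of all genes tested, 11.1% were called higher in untreated and 19% lower in overloaded Mstn-/- muscle, so the count under overload is not far from the general share. The response was smaller in Mstn-/- muscle for 8 of 19, where 8.44% of all genes were called lower. The smallest limma adjusted p were those of Lyz2 (log2 -1.09 ± 0.16, adjusted p = 3.2e-05) and Csf1r (-0.64 ± 0.14, adjusted p = 0.0017). The part of this general macrophage signal in the marker changes was not tested by a model.

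Set against the median of the 19 pan-macrophage genes on the same array, the markers spread widely. Under overload in wildtype muscle the difference between marker and list changed by -2.08 for Cd163, -1.97 for Cbr2 and -1.50 for Lyve1. The change was -1.21 for Trem2, -0.97 for Folr2, -0.43 for F13a1 and -0.22 for Stab1. It was -0.06 for Lgals3, 0.33 for Mrc1 and 0.38 for Gpnmb. Membership of the resident-type or the lipid-associated group did not fully sort these values. Mrc1, the only resident-type marker with a positive value, kept pace with the macrophage genes as Gpnmb and Lgals3 did. The other resident-type markers had negative values, and the lipid-associated Trem2 lagged beside Lyve1 and Folr2. In Mstn-/- muscle Cd163 (-2.12), Lyve1 (-1.51), Cbr2 (-1.23), Trem2 (-1.17) and Folr2 (-0.92) again fell behind, F13a1 and Stab1 were at -0.69 and -0.38, and Lgals3, Mrc1 and Gpnmb lay between -0.19 and -0.09. For Cd163 the array differences ran from -0.82 to -0.46 in untreated and from -2.97 to -2.26 in overloaded wildtype muscle. For Mrc1 they ran from 0.26 to 0.77 and from 0.43 to 1.05, which overlap. These differences were not tested, probe sets can differ in their dynamic range, and only changes of a marker between groups, not its level against another gene, are meant.

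**Figure D3:**
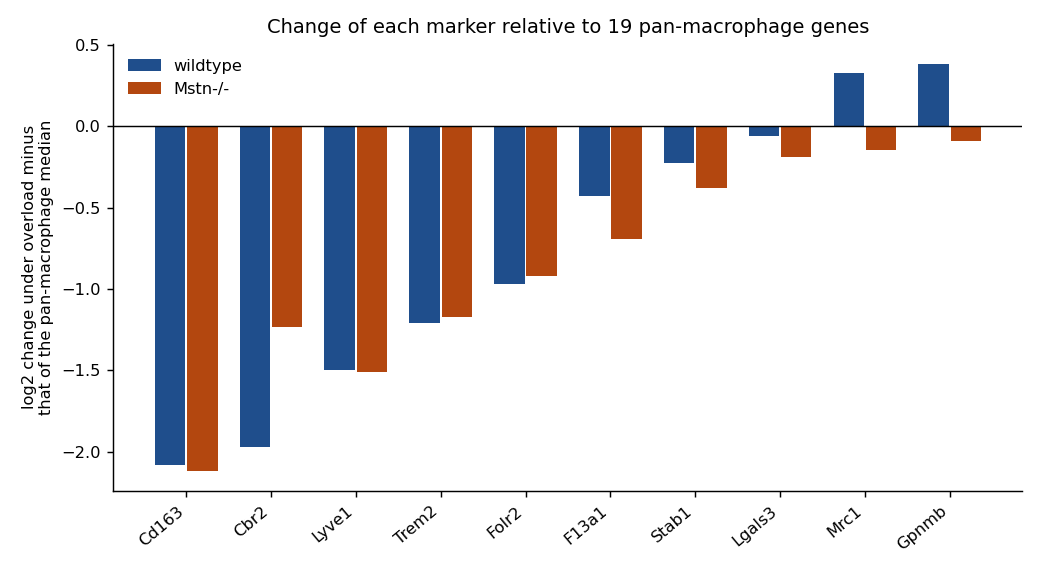
Overload change of each marker minus the change of the median of 19 pan-macrophage genes on the same arrays (vertical axis, log2), in wildtype (blue bars) and Mstn-/- muscle (orange bars), as differences of group means without a test. Bars run from -2.08 and -2.12 for Cd163 to 0.38 and -0.09 for Gpnmb.

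Other genes of the resident type did not move as a block. Of 13 tested genes, 7 rose and 4 fell in wildtype and 7 rose and 2 fell in Mstn-/- muscle, with medians of 0.52 and 0.50. The chemokine gene Pf4 rose 3.63-fold and Gas6, a ligand of MERTK and AXL, 1.86-fold in wildtype. Maf, a transcription factor of resident macrophages that muscle fibres also express, fell 1.55-fold there. Gas6 already stood at 10.12 log2 units in untreated wildtype muscle. The part of cells other than macrophages in the rises and falls of these genes was not tested. The phosphatidylserine receptor gene Timd4 fell 1.16-fold to 6.65 log2 units, close to the low-signal level, so the size of its fall is uncertain. Among Mstn-/- arrays Gas6 rose 1.57-fold and the lectin Clec4n 3.69-fold from below the low-signal level. The lectin Cd209d fell 1.26-fold there and 1.35-fold in wildtype muscle (limma adjusted p = 0.0017). The chemokine gene Ccl24 fell in Mstn-/- (adjusted p = 5.3e-07) and in wildtype muscle (adjusted p = 0.0075). Both falls ended below the low-signal level, so their size is uncertain. Ccl24 was also called between genotypes without overload, 1.25-fold higher in Mstn-/- muscle (adjusted p = 0.004). Pf4 had a smaller response in Mstn-/- muscle (log2 -0.70 ± 0.17, adjusted p = 0.0057), and Maf a less negative one (0.51 ± 0.10, adjusted p = 0.001).

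Further genes of lipid-associated macrophages mostly rose. In wildtype 12 of 16 rose and 2 fell (median 1.04), and in Mstn-/- muscle 13 rose and 2 fell (median 0.73). The phosphatidylserine-binding annexin Anxa5 rose 2.55-fold and galectin-1 (Lgals1) 1.94-fold in wildtype, and Anxa5 2.28-fold and the proton pump subunit Atp6v0d2 5.84-fold in Mstn-/- muscle, the latter from below the low-signal level. The falling pair was Lpl, lipoprotein lipase, and Cd36, a fatty acid carrier. They fell 2.19-fold and 1.74-fold in wildtype and 1.25-fold and 1.29-fold in Mstn-/- muscle. Muscle fibres, fat cells and capillaries express both. Among the risers, Anxa5 and Lgals1 already stood at 11.29 and 12.22 log2 units in untreated wildtype muscle. The part of cells other than macrophages in the rises and falls of this list was not tested. In the TREM2 signalling list 6 of 7 tested genes rose in each genotype and none fell. Its adaptor Tyrobp rose 4.59-fold and 3.45-fold and the inhibitory lipid phosphatase Inpp5d 2.17-fold and 1.83-fold, both by more than Trem2 itself, though whether the changes differ was not tested. Of the 4 MITF and TFE genes, transcription factors of lysosomal genes and of Gpnmb, Tfe3 and Tfec rose in both genotypes (1.38-fold and 1.73-fold in wildtype), and Tfeb fell 1.66-fold and 1.57-fold. Mitf fell 1.15-fold in wildtype (limma adjusted p = 0.020) and did not pass in Mstn-/- muscle (log2 -0.15, adjusted p = 0.072). Tfec was above the low-signal level only in overloaded wildtype muscle (6.82 log2 units). In overloaded Mstn-/- muscle its mean was 6.62, just below that level, so the size of its rises is uncertain.

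Most genes of a list around the CSF1 axis, which keeps macrophages alive, and of a list of alternative activation also rose. The first list held 5 genes: Csf1, Il34, Csf1r and the GM-CSF receptor chains Csf2ra and Csf2rb, which are not CSF1 receptors. Of these, 4 rose in wildtype and 5 in Mstn-/- muscle. Csf1r rose 3.35-fold and 2.14-fold, and Csf2rb 2.65-fold and 2.34-fold. The CSF1 receptor ligand Il34 did not pass in wildtype (log2 0.002, limma adjusted p = 0.98). The ligand Csf1 was 1.26-fold lower in overloaded Mstn-/- than in overloaded wildtype muscle (adjusted p = 0.00061). Of 6 alternative activation genes tested, 5 rose in each genotype, among them the IL-13 receptor chain Il13ra1 (4.65-fold and 3.32-fold). The sixth, Retnla, a secreted product of alternatively activated macrophages, fell 1.43-fold in wildtype (adjusted p = 0.047) and did not pass in Mstn-/- muscle (log2 -0.23, adjusted p = 0.37). Chil3, Arg1 and Il10 were not above the low-signal level in any group. Of 5 monocyte genes 3 rose in each genotype, and Msrb1 fell 1.17-fold in wildtype (adjusted p = 0.0032). The chemokine receptor gene Ccr2 rose in wildtype (adjusted p = 7.4e-12) and Plac8 in Mstn-/- muscle (adjusted p = 1e-11), both from below the low-signal level, so no fold is given. The response of Ccr2 was smaller in Mstn-/- muscle (adjusted p = 0.0014), with both untreated groups below that level.

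Genes of cells that share these markers moved as well, and their part in the marker changes was not tested. Of 5 lymphatic endothelium genes, 4 rose in wildtype and 3 in Mstn-/- muscle, with the transcription factor Prox1 at 1.50-fold and 1.33-fold. The summed list intensity was 968 to 1345 and 2080 to 2900 in untreated and overloaded wildtype muscle, and 876 to 1127 and 1619 to 1841 in untreated and overloaded Mstn-/- muscle. Pdpn, the brightest gene of this list, weighs most in the sum and rose 3.54-fold and 2.50-fold. Flt4 rose 1.15-fold and 1.18-fold, and Reln did not pass in either genotype. Of 10 endothelial genes 9 rose in each genotype, with medians of 0.35 and 0.57. Of 8 fibro-adipogenic progenitor genes, 7 rose in wildtype (median 1.14) and 6 in Mstn-/- muscle (median 0.89), and the summed intensity of that list rose from between 5427 and 7067 to between 16810 and 19904 in wildtype and from between 5935 and 7972 to between 11165 and 14699 in Mstn-/- muscle. All 4 proliferation genes tested rose, for example Mki67 3.83-fold in wildtype. Of 5 neutrophil genes tested 2 rose and 1 fell in wildtype and 1 rose and 1 fell in Mstn-/- muscle. Over all genes, 30.3% rose and 35.6% fell in wildtype, and 27.1% rose and 33.5% fell in Mstn-/- muscle. Ngp, which rose in wildtype, was spread widely on the overloaded arrays (7.02 ± 1.37 log2 units, SD) and below the low-signal level without overload. These counts were not repeated without overloaded wildtype replicate 3, which stood apart for neutrophil genes. S100a8, Ly6g and Retnlg were not above the low-signal level in any group. Of 6 adipocyte genes none rose and 2 fell in wildtype, and 1 rose in Mstn-/- muscle. Of the 8 muscle fibre genes 5 fell in wildtype, whereas 2 rose and 4 fell in Mstn-/- muscle. Of 5 dendritic cell genes 3 rose and 1 fell in wildtype, and of 4 mast cell genes 4 rose in wildtype; in Mstn-/- muscle 1 gene of each of these lists rose and 1 fell.

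Within groups the resident-type markers also varied together from mouse to mouse. Correlations were taken over all 24 arrays after removing the group means, with permutation within groups (100000 resamples, two-sided) and Benjamini-Hochberg adjustment over the 45 pairs. By Pearson's r 15 pairs passed, 12 of the 21 among resident-type markers (median r 0.54), 2 of the 21 between the types and 1 of the 3 among lipid-associated markers; by Spearman's rho 11 passed. The strongest pair was Folr2 with F13a1 (r = 0.89, rho = 0.90, permutation p = 1e-05 for both, the smallest that the resamples can give, adjusted p = 0.00045). Mrc1 followed with F13a1 (r = 0.83, rho = 0.82), Stab1 (r = 0.82, rho = 0.81) and Folr2 (r = 0.79, rho = 0.82), each with an adjusted permutation p of 0.00067. F13a1 with Cbr2 gave r = 0.65 and rho = 0.71 (adjusted permutation p = 0.0072 and 0.003). These 5 pairs alone still passed when overloaded wildtype replicate 3 was left out, and the same 5 passed when the pair of arrays farthest from the median of the x-axis marker was left out, with r of 0.88, 0.76, 0.68, 0.81 and 0.70 in the order given. The other 10 passed in neither of these settings, which also hold fewer arrays, and their r did not change alike. For Folr2 with Stab1 r was 0.57 over all arrays and 0.58 without overloaded wildtype replicate 3 (adjusted permutation p = 0.084). For Stab1 with Gpnmb it was 0.61 and 0.45. No pair with Cd163 passed, with r from -0.16 for Trem2 to 0.41 for Gpnmb. The markers of an array share its RNA sample and dissection, and the part of these in the correlations was not tested.

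**Figure D4:**
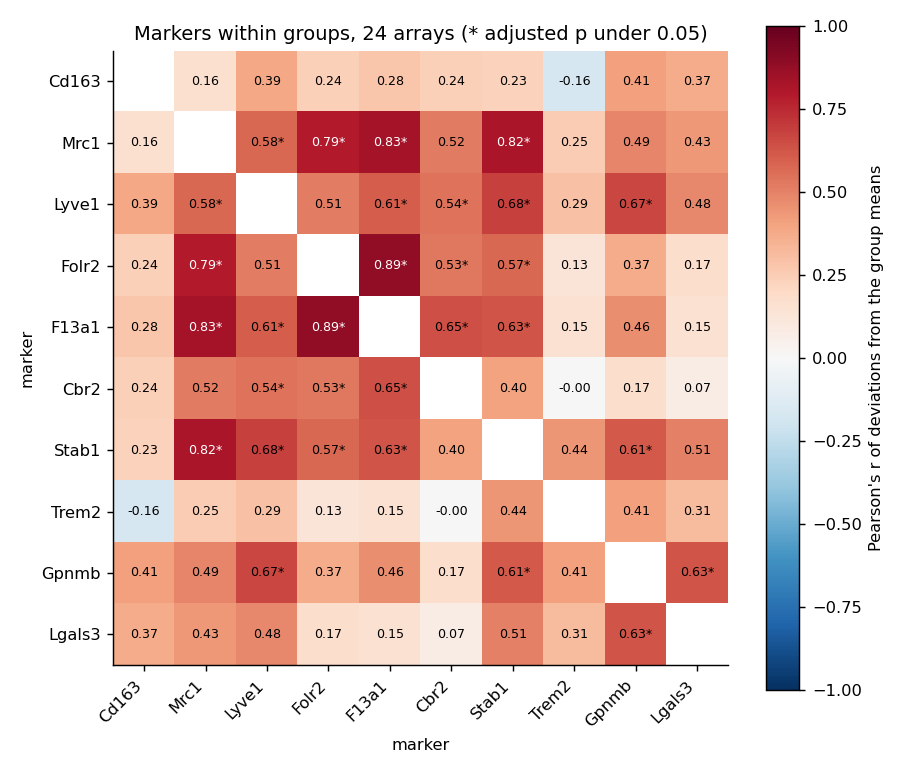
Pearson's r of each pair of the 10 markers (both axes) over 24 arrays after removal of the group means, coloured from -1 to 1, with an asterisk where the permutation p adjusted over 45 pairs was under 0.05. The block of high values joins Mrc1, Folr2, F13a1 and Stab1, with r up to 0.89, while the line of Cd163 has no asterisk.

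The genes whose pattern over the 4 group means was most like that of each marker were taken as those with the smallest root mean square difference after centring, among 13857 tested genes. For Mrc1 these were Fyb, Myof and Fcrls, at distances of 0.05 to 0.06 log2 units, with Fyb in both untreated groups and Fcrls in untreated wildtype muscle below the low-signal level. For F13a1 they were Tgfb1, Spi1, which encodes PU.1, and Cyth4, at 0.01 to 0.03. For Stab1 they were Ptgfrn, Matn2 and the macrophage receptor gene Sirpa, at 0.02 to 0.03. Gpnmb was closest to Fap and to the antigen presentation genes Cd74 and H2-Eb1, at 0.07 to 0.08, and Lgals3 to Fam114a1, the collagen gene Col6a2 and Emp1, at 0.04 to 0.05. Folr2 was closest to Naaa, Morc4 and Nusap1, the last of them below the low-signal level in untreated muscle, and Trem2 to Hdac1, Bcat1 and Arsa. Lyve1 was closest to Ppm1m, Prkd3 and Esyt2, Cbr2 to Rsad2, Npy1r and Kitl, and Cd163 to Rev3l, Ric1 and Morn4. Among the markers themselves Stab1 and Lgals3 were the closest pair at 0.10, Mrc1 and Gpnmb were 0.12 apart, as were Folr2 and Trem2, and Cd163 and Gpnmb were the farthest apart at 1.13. With 4 group means per gene such a likeness describes the pattern only.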

How the data were processed

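The authors deposited 1 intensity per probe set and array for 24 arrays, made with RMA (background correction, normalization and summary) per the submitters' processing notes (no version named). The values, from 4.72 to 25589, are linear, although log2 values had been planned for, and log2 was taken without a pseudocount. Of 34760 probe sets, the 21640 with a single gene symbol were used, for each gene the 1 with the highest mean. Genes with a group mean above the 30th percentile (intensity 98.9, log2 6.63) were tested, 14499 in all.

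The model was fitted with limma 3.58.1 (R 4.3.3): 1 mean per group, all 24 arrays, 20 residual degrees of freedom, eBayes, Benjamini-Hochberg adjustment over all genes tested, threshold 0.05. Folds are ratios of geometric means, and errors are SE of log2 differences unless SD is stated. The number of arrays limits the precision. The median SE over all genes was 0.067. The fit was tested on simulated data. Alternatives were other normalizations, filters, probe set rules, variance models, weights, a replicate block and single arrays left out. For each list, named genes are the 2 higher and 2 lower ones with the smallest adjusted p, and some further genes were named after their values were seen. The markers and lists were chosen with earlier results of these data known. Without scan dates, batches could not be examined.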

Additional observations from a re-analysis of the deposited data

Results flagged for a closer look

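Of 40 sets of 6 arrays (10 markers in 4 groups), 4 held an array far from the other 5 by Dixon's criterion, which chance meets in about 1 of 20 sets. In untreated wildtype muscle, Lgals3 stood at 9.47 log2 units in replicate 6, above the others, and Gpnmb at 7.29 in replicate 4, below the others. In overloaded Mstn-/- muscle, Gpnmb stood at 9.23 in replicate 6, below the others, and Cd163 at 7.29 in replicate 5, above the others.

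The overload response differed between the genotypes by the interaction term of the limma model for 4 markers, Mrc1 (log2 -0.75), Gpnmb (-0.75), F13a1 (-0.54) and Stab1 (-0.43), each smaller in Mstn-/- muscle. Only Mrc1 and Stab1 kept this call in all 24 fits without 1 array.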

How the results depend on the processing

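Over 1155 refits of single marker differences, 1064 kept direction and side of the threshold, 53 lost the call, 21 gained it and 17 changed sign. For overload in wildtype, Cbr2 was 0.026 under quantile normalization. In untreated muscle the genotypes differed in 2 markers with arrays shifted to the same median, with the mean of all probe sets, with the replicate block or with only the groups compared, and in 3 with array weights. The difference between responses was called for 2 markers without a filter or with a trended and robust variance. Among marker pairs, 5 correlations passed without the 2 farthest arrays and 5 without overloaded wildtype replicate 3, an alternative chosen after seeing the data.

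Leaving out single arrays, the counts of markers called ran from 7 to 8 for overload in wildtype, 9 to 9 in Mstn-/- muscle, 1 to 1 for genotype in untreated and 4 to 7 in overloaded muscle, and 2 to 5 for the difference between responses. That last count was 2 without untreated wildtype replicate 4, overloaded wildtype replicate 6, untreated Mstn-/- replicate 1, 5 or 6 or overloaded Mstn-/- replicate 1 or 6. Uncalled differences that changed sign were those of Lyve1 between overloaded genotypes (-0.21 to 0.011), of Cbr2 (-0.056 to 0.093), Folr2 (-0.097 to 0.019), Lgals3 (-0.26 to 0.040) and Trem2 (-0.056 to 0.010) between untreated genotypes, and of Cbr2 under overload in wildtype (-0.10 to 0.070).

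F13a1 lost its call between overloaded genotypes with arrays at the same median (adjusted p = 0.068), no filter (0.062), a trended variance (0.056), array weights (0.15) or only the groups compared (0.10). Gpnmb, at the threshold in untreated muscle, passed under 6 alternatives, for example the replicate block (0.042). Cd163 was not tested under the stricter filter. Same-numbered arrays did not deviate together: of 36 pairs between groups 9 had a correlation over 0.1 (range -0.41 to 0.36), and 4 of 24 arrays were closest to their own number. The pairing by replicate number is therefore only a number. With the replicate block 8, 9, 2, 6 and 5 markers were called in the 5 comparisons. Causes were not tested. Dim genes such as Cd163 limit what the arrays can show.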
